A study of Sus scrofa with 9 samples.

Results

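In deciduous molar germs of miniature pigs, 174 genes were higher by mean log2 value at the late bell stage than at the earlier stage in both sets of libraries into which the study falls. Leading genes among them were the membrane-anchored metalloproteinase gene MMP25, the peptide transporter gene SLC15A1, the sodium-proton exchanger gene SLC9A2 and the collagen lysyl hydroxylase gene PLOD2. MMP25 was 167-fold above the E50 mean in E60 library 1 and 61-fold above the E40 mean in E60 libraries 2 and 3. The members were chosen from the deposited FPKM values (fragments per kilobase of transcript, scaled to the fragments mapped in a library) as L = log2(FPKM + 0.1), with no scaling between libraries. A member reached an FPKM of 1 in 2 or more of 9 libraries and had an L in E60 library 1 at least 1 above the mean L of the E50 libraries and a mean L in E60 libraries 2 and 3 at least 1 above the mean L of the E40 libraries. Rows without a gene name (symbols starting with LOC) were left out, and so were 12 named genes of enamel, dentin and bone matrix (AMBN, ENAM, AMEL, AMTN, ODAM, MMP20, KLK4, DSPP, DMP1, PHEX, SPP1 and IBSP) and symbols starting with COL, LAM, ITG, KRT, MIR or TRNA. Of 34580 rows listed, 19618 passed the filter on low values, 11104 of these were candidates, 399 had the first rise (3.59%), 628 the second (5.66%) and 174 both (1.57%). Of the members, 144 did not overlap between late bell and earlier libraries in either set (3.63% of candidates). More than 3 recovered reads in each of E60 libraries 2 and 3 were found for 135 (80.7% of candidates). Since the FPKM values chose the members, their rises and these counts are descriptions and carry no test.

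The germs were those of the mandibular deciduous molar Dm3, taken from fetuses of miniature pigs on embryonic day 40 (E40, the cap stage), day 50 (E50, the early bell) and day 60 (E60, the late bell). Total RNA depleted of rRNA was sequenced from 3 libraries per stage, and values of a stage are given in the order of the library numbers 1, 2 and 3. No treatment or genotype distinguished the stages. The study's methods speak of biological replicates, but whether the libraries of a stage came from separate fetuses is not given. The spread between these libraries, on which any p-value rests, may therefore be technical.

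At the cap stage the dental epithelium folds over the condensed dental mesenchyme. At the bell stage the inner enamel epithelium and the facing dental papilla cells differentiate into ameloblasts and odontoblasts, the cells that secrete the matrices of enamel and dentin. These cells carry large amounts of secretory, collagen-modifying and ion-transporting machinery, and mineral formation releases protons that the tissue must buffer and export.

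The libraries did not group by stage alone. Whole reads, recovered from the equal steps of the FPKM values, came to between 14362175 and 16674237 in the E50 libraries and E60 library 1, called deep here, and to between 938477 and 1760334 in the E40 libraries and E60 libraries 2 and 3, called shallow. In the shallow libraries the row LOC102158401 took between 22.3% and 40.6% of reads and TEX14 between 4.43% and 9.91%, and in the deep libraries at most 0.576% and 0.0147%. Mitochondrial genes took 2.92% of reads in E60 library 2 and between 0.593% and 1.12% in the others. The first rise of the rule therefore compares 1 late bell library with 3 early bell libraries of like depth, and the second compares 2 late bell libraries with 3 cap stage libraries of like depth. Cap stage and early bell stage never occur in the same set, so that stage and set cannot be told apart between E40 and E50. The median-ratio factor of a library compares its values with the geometric means of 14110 genes. It was 1.46, 1.36 and 1.45 at E50 and 1.31 in E60 library 1. In the shallow set it was 0.792, 0.886 and 1.03 at E40 and 0.512 and 0.85 in E60 libraries 2 and 3. Orders of libraries across the sets are given in unscaled FPKM and can differ after scaling.

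The name late bell was checked against the genes that mark it. The matrix genes that the rule left out by name had both rises themselves in 6 of 12 cases, namely AMBN, ENAM, AMEL, DSPP, DMP1 and PHEX. The other 6, AMTN, ODAM, MMP20, KLK4, SPP1 and IBSP, were not listed, failed the filter on low values or lacked a rise. Which of these held for each is not given here. AMBN, which encodes the enamel matrix protein ameloblastin, had 5.58, 6.48 and 2.77 FPKM at E40 and 4.61, 4.02 and 2.95 FPKM at E50. It reached 10410, 2181 and 5371 FPKM in the late bell libraries. DSPP, which encodes dentin sialophosphoprotein, reached 393, 174 and 194 FPKM in these libraries, compared with 1.31, 1.42 and 0.857 FPKM at E50 and 2.62, 1.41 and 0 FPKM at E40. Every E60 library lay above every earlier library for both genes, so that the label late bell held in all 3 E60 libraries by these markers.

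**Figure D1:**
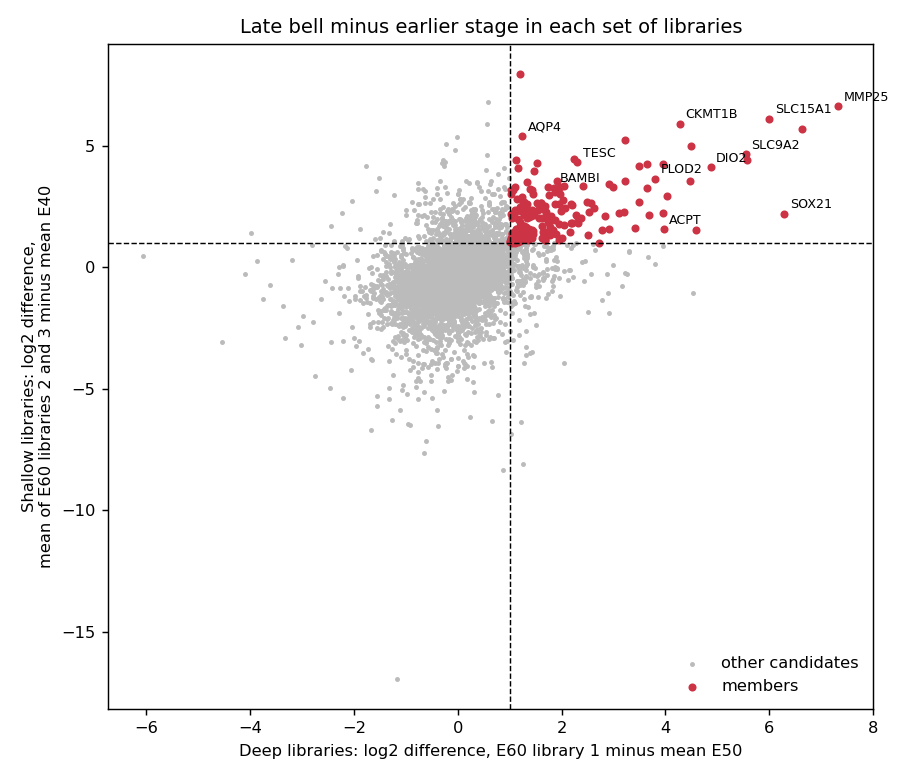
Each point is 1 of 11104 candidate genes, with the log2 difference between E60 library 1 and the mean of the E50 libraries on the x axis and that between E60 libraries 2 and 3 and the mean of the E40 libraries on the y axis. The 174 members (red) lie at or above 1 on both axes (dashed lines), with MMP25 at 7.33 and 6.63.

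The rise within the deep set had a median of 1.61 over the members, with a highest value of 7.33, and that within the shallow set a median of 2.12, between 1.01 and 7.95, on the log2(FPKM + 0.1) scale, on which changes of weakly expressed genes appear too small. The 7.95 was that of the transfer RNA row tRNA-Met, with 0, 0 and 1 reads at E40 and 55 and 3 in E60 libraries 2 and 3. The highest shallow rise outside the transfer RNA rows was 6.63, of MMP25. The sets share no library, and the candidates with the rise of 1 set are described here by their values in the other. The 399 candidates with the first rise had a median difference of 0.84 in the shallow set, where all 11104 candidates had a median of -0.45. Of these 399 genes, 174 (43.6%) were at least 1 higher and 42 (10.5%) at least 1 lower in the shallow set, against 5.66% and 16.9% of all candidates. The 628 candidates with the second rise had a median of 0.47 in the deep set, against -0.08 for all candidates. Of these, 27.7% were at least 1 higher and 18 (2.87%) at least 1 lower there. The filter on low values used all 9 libraries, so that a gene could pass it through the libraries in which it is then read. The 174 genes with both rises are the members themselves. Genes are not independent replicates, these shares describe the libraries, and nothing is read from them.

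The level of the members at late bell varied widely. Their FPKM had a median of 12.3 in E60 library 1, between 0.171 and 989, and the mean of E60 libraries 2 and 3 had a median of 5.14. The median of the stage means was 1.23 FPKM at E40 and 3.01 FPKM at E50. E60 library 1 lay above all E50 libraries for 170 members (background 26% of candidates), and E60 libraries 2 and 3 both lay above all E40 libraries for 145 (background 5.02%). Both held for 144 members (background 3.63%). For 65 members every E60 library lay above every E40 and E50 library, across the sets (background 0.802%). The rule used these libraries, so that nothing is read from these counts.

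The E60 libraries did not carry the members at equal level. E60 library 1 was the highest of the 3 for 139 of 174 members (79.9%), as it was for 70.3% of candidates, and E60 library 3 was above E60 library 2 for 148 members (85.1%), as for 76.6% of candidates. The early bell stage was already at least 1 above the cap stage on the log2 scale for 121 members (69.5%, candidates 43.5%) and at least 1 below for 10 (5.75%, candidates 15.9%). A gradual course from cap to late bell and a difference between the sets cannot be told apart in these 2 shares. In whole germs, a higher value can also come from more cells of a type or from more RNA per cell, which cannot be told apart.

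**Figure D2:**
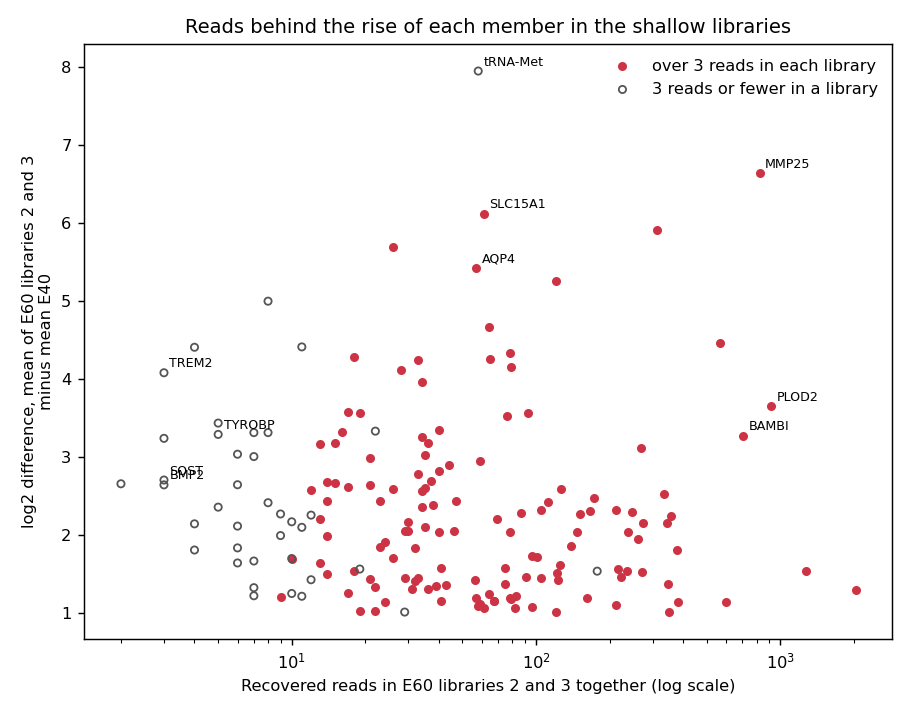
Recovered reads of each member in E60 libraries 2 and 3 together (x axis, log scale) against its log2 difference from the E40 mean (y axis). Filled points are the 135 members with more than 3 reads in each of the 2 libraries and open points those with 3 reads or fewer in at least 1, among them SOST, BMP2, TREM2 and TYROBP.

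The depth behind the second rise was low for part of the members. The median read number was 410 in E60 library 1, 11 in E60 library 2 and 24 in E60 library 3. Of the 174 members, 135 had more than 3 reads in each of E60 libraries 2 and 3, 94 had at least 10 in each, and 11 had 3 reads or fewer in both. At E40, 70 members had 3 reads or fewer in every library and 12 had no read. A value of 3 reads or fewer is at the floor, where the rise rests on counting error as much as on level. For several genes with few reads at E40, the ratio of pooled reads per recovered read is given below with its exact 95% interval. Against 3 libraries without a read the fold is a lower bound that sets E40 at 3 reads per library, and no fold is given where the E60 libraries are at this floor as well. Intervals and floors cover counting error only.

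**Figure D3:**
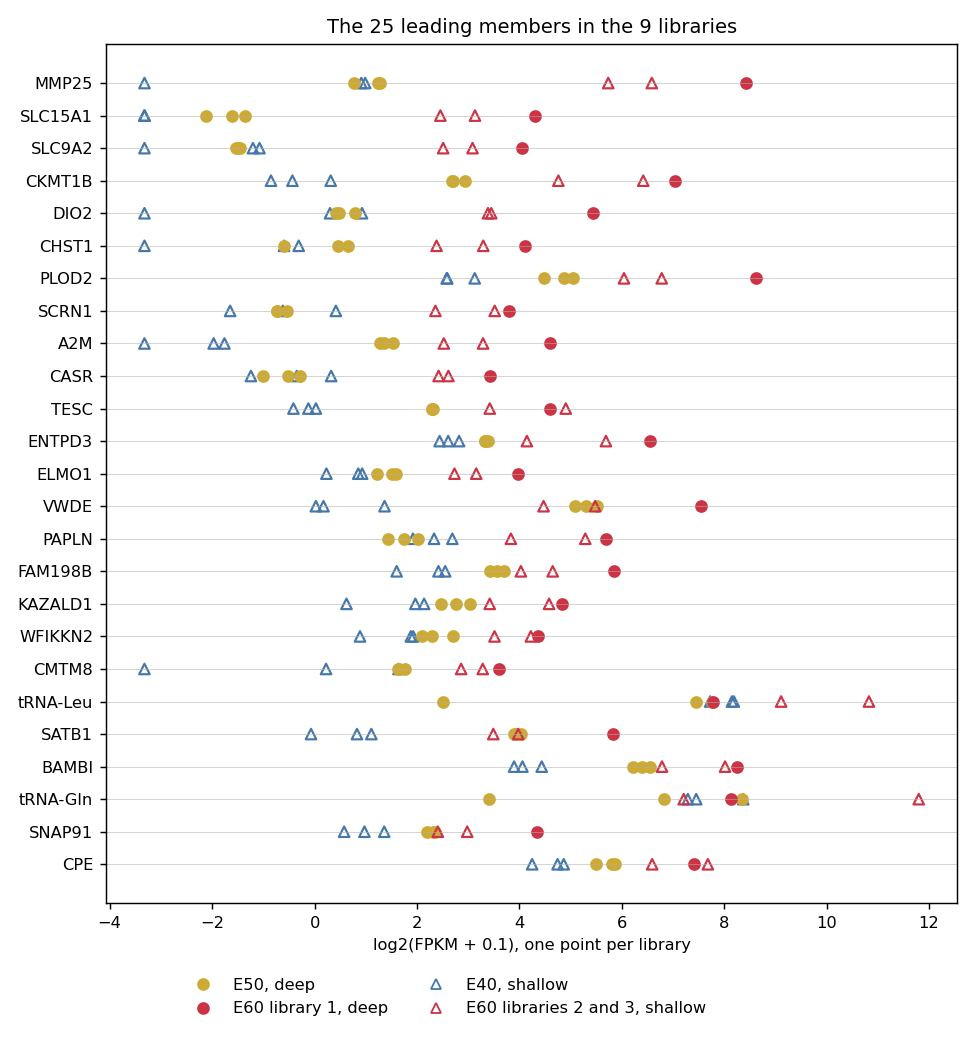
The 25 members with the largest smaller rise among those with at least 5 FPKM in each E60 library, 1 point per library on the log2(FPKM + 0.1) scale. Filled circles are deep libraries (E50 yellow, E60 library 1 red) and open triangles shallow libraries (E40 blue, E60 libraries 2 and 3 red). For MMP25, SLC15A1 and SLC9A2 every red point lies above every other point, while for tRNA-Leu and tRNA-Gln the E50 points spread over more than 4 units.

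The members were grouped by the known role of their products after their values had been seen, which placed 123 members in at least 1 of 9 groups and left 51 in none. The largest group was that of matrix proteins, collagen-processing enzymes and extracellular proteases with 25 members, followed by signals and receptors with 22 and by ion, solute and receptor transport proteins with 19. The median rise in the deep set was highest in the 7 genes known from mineral formation and tooth disease, at 3.64, and lowest in the 11 transcription factor genes, at 1.2.

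**Figure D4:**
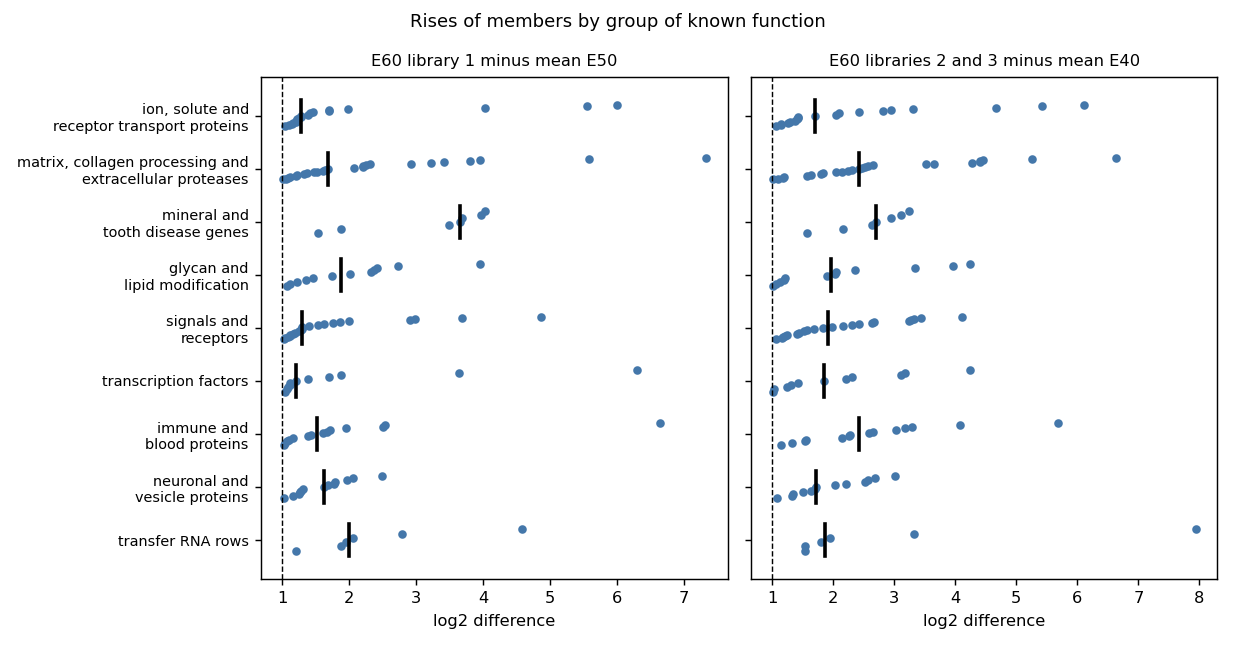
Log2 differences of the members in each group of known function, in the deep set (left) and the shallow set (right). Each point is 1 gene, the black bar is the median of the group and the dashed line marks the difference of 1 that the rule required. The 7 mineral and tooth disease genes have medians of 3.64 and 2.70, of which the second is the value of SOST, from 1 and 2 reads in E60 libraries 2 and 3.

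Among the matrix genes, MMP25 encodes a metalloproteinase that is held on the cell surface by a lipid anchor and is best known from neutrophils. It had 344, 53.1 and 95.9 FPKM in E60 libraries 1 to 3, compared with 1.61, 2.26 and 2.32 FPKM at E50 and 1.88, 0 and 1.78 FPKM at E40. The late bell libraries thus lay far above both earlier stages, whose mean was 1.22 ± 1.06 FPKM (SD, n = 3) in the cap stage and 2.06 ± 0.394 FPKM (SD, n = 3) in the early bell. The rise rested on 18839, 249 and 573 reads in the E60 libraries, against at most 8 in any E40 library.

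Enzymes that modify and cross-link collagen were members at low as well as at high levels of expression. PLOD2 encodes the lysyl hydroxylase that prepares collagen telopeptides for cross-links, and it had 5.93, 5.88 and 8.64 FPKM in the cap stage libraries, 22.3, 33.2 and 29.3 FPKM in those of the early bell and 391, 65.8 and 109.7 FPKM in those of the late bell. Its E60 library 1 was 13.9-fold above the E50 mean of 28.2 ± 5.52 FPKM (SD, n = 3), and E60 libraries 2 and 3 were on average 12.9-fold above the E40 mean of 6.81 ± 1.58 FPKM (SD, n = 3), so that both sets gave a rise of like size. LOX, the gene of lysyl oxidase, which forms these cross-links, had 111, 33.4 and 51.4 FPKM across the late bell libraries, against 15, 14.1 and 14.5 FPKM in the early bell and 8.76, 18 and 17.2 FPKM in the cap stage. Every E60 library was above every earlier one, and the rises were 7.63-fold and 2.89-fold in the deep and the shallow set. P4HA2, a prolyl hydroxylase subunit that stabilizes the collagen helix, was barely inside the rule. It had 115, 28.5 and 56.8 FPKM in E60 libraries 1 to 3, compared with 60.8, 56.2 and 49.3 FPKM at E50 and 16.5, 22.3 and 21.4 FPKM at E40, with 2.07-fold and 2.12-fold rises and no overlap in either set. LEPREL1, an older symbol of the prolyl 3-hydroxylase gene P3H2, had 0, 1.18 and 2.51 FPKM in the cap stage libraries, 2.41, 2.81 and 2.66 FPKM in those of the early bell and 12.5, 2.71 and 5.89 FPKM in those of the late bell. E60 library 2 held only 9 reads of it and lay close to the highest E40 library.

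The other matrix genes included protease inhibitors and adhesive glycoproteins. A2M, which encodes the protease inhibitor alpha-2-macroglobulin, had 24.2, 5.65 and 9.68 FPKM across the late bell libraries, against 2.34, 2.78 and 2.44 FPKM in the early bell and 0, 0.195 and 0.155 FPKM in the cap stage. With 2 reads in the E40 libraries together, the pooled ratio in the shallow set was 63.8 (95% interval 17.3 to 533). VWDE, which encodes a secreted protein with von Willebrand factor D and EGF domains, had 187, 22.1 and 44.5 FPKM in E60 libraries 1 to 3, compared with 34.1, 45.9 and 39.1 FPKM at E50 and 1.03, 0.917 and 2.48 FPKM at E40. Within each set the late bell was higher, by 4.72-fold and 22.6-fold, but in unscaled FPKM E60 library 2 lay below all E50 libraries. PAPLN, the gene of papilin, an extracellular matrix protein related to the ADAMTS proteases, had 3.69, 4.94 and 6.35 FPKM in the cap stage libraries, 3.97, 2.61 and 3.24 FPKM in those of the early bell and 51.6, 14.2 and 38.9 FPKM in those of the late bell. It was one of the members in which the early bell mean did not exceed the cap stage mean, and the late bell alone stood out. KAZALD1 encodes a secreted protein of the IGF-binding protein related family, and it had 28.4, 10.6 and 23.8 FPKM across the late bell libraries, against 6.68, 5.42 and 8.15 FPKM in the early bell and 4.3, 1.44 and 3.81 FPKM in the cap stage, with no overlap between late bell and earlier libraries.

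Microfibril and cell surface components completed this group. MFAP5, a microfibril-associated glycoprotein gene, had 67.4, 26.4 and 54.2 FPKM in E60 libraries 1 to 3, compared with 23.4, 26.6 and 30.9 FPKM at E50 and 1.85, 1.65 and 10.5 FPKM at E40. It was 2.5-fold higher in the deep set and 8.65-fold higher in the shallow set, where its E40 libraries held 1, 1 and 8 reads. EDIL3, which encodes an integrin-binding glycoprotein, had 4.51, 5.23 and 6.07 FPKM in the cap stage libraries, 62, 75.7 and 71.4 FPKM in those of the early bell and 161, 19.6 and 35.6 FPKM in those of the late bell. Its E50 libraries were above E60 libraries 2 and 3 in unscaled FPKM, in which the order of stages holds within each set and not across them. MME, the gene of the cell-surface peptidase neprilysin, showed the same order with 96.3, 12 and 18.7 FPKM across the late bell libraries, against 35.1, 47.1 and 44.4 FPKM in the early bell and 1.52, 2.72 and 4.32 FPKM in the cap stage. CD44, the hyaluronan receptor gene, had rises of 3.11-fold and 2.42-fold. Of the 25 genes of the group, 23 did not overlap in either set (82.8% of all members, 3.63% of candidates). More than 3 reads in each of E60 libraries 2 and 3 were found for 21 (77.6% of all members, 80.7% of candidates). The rule used these libraries, so that nothing is read from these counts.

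The group of 7 genes known from mineral formation or from inherited defects of enamel or bone includes some that also stand in other groups. ACPT (ACP4), an acid phosphatase gene that is mutated in the inherited enamel defect amelogenesis imperfecta, had 31.7, 7.73 and 17.9 FPKM in E60 libraries 1 to 3, compared with 1.95, 1.55 and 2.38 FPKM at E50 and 3.59, 4.81 and 3.4 FPKM at E40. It was 16.2-fold higher in the deep set and 3.26-fold higher in the shallow set, and its early bell mean was below its cap stage mean. SATB1, a chromatin organizer gene with a known role in ameloblasts, had 0.853, 1.67 and 2.06 FPKM in the cap stage libraries, 14.8, 16.1 and 15.2 FPKM in those of the early bell and 56.6, 11.1 and 15.6 FPKM in those of the late bell. In unscaled FPKM, its early bell libraries were within the range of E60 libraries 2 and 3 or above. The rises within the sets were 3.68-fold and 8.76-fold.

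PHOSPHO1 encodes the phosphatase that frees phosphate inside matrix vesicles at the start of mineral formation. It had 7.96, 3.08 and 6.7 FPKM across the late bell libraries, against 0.644, 0.679 and 0.361 FPKM in the early bell and 0, 0.898 and 1.07 FPKM in the cap stage. The E60 libraries held 272, 9 and 25 reads and the E40 libraries 0, 2 and 3, with a pooled ratio of 7.17 (95% interval 2.79 to 23.5) in the shallow set. SOST, which encodes the WNT inhibitor sclerostin of osteocytes, had 4.07, 1.13 and 1.78 FPKM in E60 libraries 1 to 3, compared with 0.32, 0.281 and 0.218 FPKM at E50 and 0, 0 and 1.18 FPKM at E40. Its rise of 14.9-fold in the deep set rested on 42 reads against 8, whereas E60 libraries 2 and 3 held 1 and 2 reads and E40 library 3 held 1, so that no rise was detectable in the shallow set at this depth. BMP2, the bone morphogenetic protein gene, was likewise 3.05-fold higher in the deep set, with 1.21, 0.997 and 0.799 FPKM at E50 and 3.06 FPKM in E60 library 1, and at 1 and 2 reads in E60 libraries 2 and 3 against 0 at E40.

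Transport proteins of ions, solutes and receptors formed the next group. SLC15A1 encodes the proton-coupled peptide transporter known from the intestine, and SLC9A2 a sodium-proton exchanger of epithelia. SLC15A1 had 0, 0 and 0 FPKM in the cap stage libraries, 0.228, 0.29 and 0.129 FPKM in those of the early bell and 19.7, 5.39 and 8.67 FPKM in those of the late bell, with 20 and 41 reads in E60 libraries 2 and 3 and none at E40, so that these libraries were at least 6.81-fold higher than the E40 floor. SLC9A2 had 16.4, 5.6 and 8.38 FPKM across the late bell libraries, against 0.264, 0.253 and 0.244 FPKM in the early bell and 0.374, 0.334 and 0 FPKM in the cap stage, and its pooled ratio in the shallow set was 33.8 (95% interval 8.97 to 285). Neither had more than 1 read in any E40 library.

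Genes of calcium handling were among them. CASR encodes the calcium-sensing receptor, which reads the extracellular calcium concentration, and had 10.6, 5.26 and 6.02 FPKM in E60 libraries 1 to 3, compared with 0.723, 0.599 and 0.40 FPKM at E50 and 0.322, 1.15 and 0.686 FPKM at E40. All late bell libraries were above all earlier ones, with a 18.5-fold rise in the deep set and a 7.83-fold rise in the shallow set. ATP2B1, a plasma membrane calcium pump gene, was expressed at every stage, with 8.11, 11.4 and 15 FPKM in the cap stage libraries, 33.1, 37.6 and 25.4 FPKM in those of the early bell and 86.6, 24.4 and 34.3 FPKM in those of the late bell. Its rises were 2.7-fold and 2.55-fold. SLC8A3, a sodium-calcium exchanger gene, had 16.1, 7.01 and 9.11 FPKM across the late bell libraries, against 6.48, 6.43 and 6.86 FPKM in the early bell and 2.98, 1.45 and 3.08 FPKM in the cap stage, and every E60 library was above every earlier one. TESC, which encodes a calcium-binding partner of a sodium-proton exchanger, stood outside this group and had 24.2, 10.6 and 29.9 FPKM in E60 libraries 1 to 3, compared with 4.88, 4.8 and 4.8 FPKM at E50 and 0.918, 0.819 and 0.651 FPKM at E40, with a pooled ratio of 27.4 (95% interval 9.05 to 136) in the shallow set.

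Water, chloride and proton transport genes were also members. AQP4, a water channel gene, had 0, 1.29 and 1.02 FPKM in the cap stage libraries, 32, 35.9 and 31.7 FPKM in those of the early bell and 78.8, 17.6 and 29.96 FPKM in those of the late bell. The pooled ratio in the shallow set was 30.1 (95% interval 7.95 to 254), and in unscaled FPKM E50 was above E60 libraries 2 and 3 in all 3 libraries. CLCA2, which encodes a regulator of chloride conductance, had 9.33, 5.57 and 7.82 FPKM across the late bell libraries, against 4.24, 3.88 and 3.9 FPKM in the early bell and 2.39, 3.35 and 3.15 FPKM in the cap stage, a small rise with no overlap between the E60 and the earlier libraries. ATP6V1C1, a subunit gene of the vacuolar proton pump, was 3.21-fold and 2.32-fold higher. Of the 19 transport genes, 17 did not overlap in either set (82.8% of all members, 3.63% of candidates), from which nothing is read.

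The 12 genes of glycan and lipid modification did not overlap in either set (82.8% of all members, 3.63% of candidates). Each had more than 3 reads in both E60 libraries 2 and 3 (77.6% of all members, 80.7% of candidates). The rule used these libraries, so that nothing is read from these counts. CHST1, which encodes a sulfotransferase that acts on keratan sulfate, had 17.2, 5.11 and 9.71 FPKM in E60 libraries 1 to 3, compared with 1.47, 0.557 and 1.27 FPKM at E50 and 0, 0.707 and 0.561 FPKM at E40. Its pooled ratio in the shallow set was 17.1 (95% interval 6.38 to 64.8), close to the 15.7-fold rise of the deep set. The members GALNT1, GALNT5 and GALNT12 encode enzymes that start O-linked mucin-type glycans. GALNT1 was the most abundant of these 3, with 13.3, 11.1 and 13.8 FPKM in the cap stage libraries, 73.2, 101 and 95.2 FPKM in those of the early bell and 227, 19.7 and 39.4 FPKM in those of the late bell. GALNT5 was 5.1-fold and 4.07-fold higher, and GALNT12 5.5-fold and 5.73-fold, in the deep and the shallow set. SGMS2, a sphingomyelin synthase gene that is mutated in a skeletal dysplasia, had 26.9, 4.86 and 9.11 FPKM across the late bell libraries, against 4.85, 5.54 and 5.03 FPKM in the early bell and 2.18, 1.11 and 1.54 FPKM in the cap stage. ARSB, which encodes the lysosomal enzyme that removes sulfate from chondroitin and dermatan sulfate, had 50.3, 40.9 and 41.2 FPKM in E60 libraries 1 to 3, compared with 8.44, 7.86 and 6.46 FPKM at E50 and 25, 18.3 and 18.5 FPKM at E40. It was 6.63-fold above the E50 mean and only 1.99-fold above the E40 mean, at the limit of the rule.

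Signals and receptors showed mostly small rises in the deep set, with a median of 1.29. BAMBI, which encodes a decoy receptor of the BMP and TGF-beta pathways, was the most abundant, with 16.6, 14.8 and 21.5 FPKM in the cap stage libraries, 83.7, 74.4 and 93.2 FPKM in those of the early bell and 302, 110.1 and 259 FPKM in those of the late bell. It was 3.61-fold higher in the deep set and 10.5-fold higher in the shallow set, where the pooled ratio was 10.7 (95% interval 8.39 to 14). Other members of these pathways were SMAD9, a BMP signal transducer gene, and CHRDL1, which encodes a secreted BMP antagonist. SMAD9 had 25.2, 4.87 and 6.96 FPKM across the late bell libraries, against 10.5, 12.2 and 10.4 FPKM in the early bell and 2.53, 2.44 and 3.29 FPKM in the cap stage, and CHRDL1 had 7.78, 3.54 and 3.21 FPKM in E60 libraries 1 to 3, compared with 3.63, 3.45 and 3.51 FPKM at E50 and 0.274, 1.22 and 3.11 FPKM at E40. WFIKKN2, the gene of a secreted protein that binds growth differentiation factors, had 3.7, 3.58 and 1.75 FPKM in the cap stage libraries, 6.4, 4.18 and 4.81 FPKM in those of the early bell and 20.4, 11.3 and 18.6 FPKM in those of the late bell, with no overlap across all libraries.

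DIO2 encodes the deiodinase that activates thyroid hormone, and it showed the largest deep rise among the signals and receptors. It had 43, 10.4 and 10.8 FPKM across the late bell libraries, against 1.63, 1.29 and 1.24 FPKM in the early bell and 0, 1.13 and 1.8 FPKM in the cap stage. The E40 libraries held 3 reads together, and the pooled ratio in the shallow set was 9.85 (95% interval 3.04 to 50.6). CYP26A1, which encodes the enzyme that degrades retinoic acid, had 70.2, 28.2 and 59.96 FPKM in E60 libraries 1 to 3, compared with 28.4, 26.4 and 31.3 FPKM at E50 and 11.4, 13.2 and 19.3 FPKM at E40. Its rises were 2.45-fold and 3.01-fold. ERBB4, a neuregulin receptor gene, had rises of 2.38-fold and 2.89-fold, and HEY1, a NOTCH target gene, rises of 2.17-fold and 2.65-fold, both without overlap in either set.

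Of the transcription factor genes, SOX21 differed most between the sets. It encodes an SRY-box factor known from hair and dental epithelium, and had 0.363, 3.24 and 1.8 FPKM in the cap stage libraries, 0.093, 0.102 and 0.0474 FPKM in those of the early bell and 13.9, 4.19 and 10.1 FPKM in those of the late bell. The 172-fold deep rise started from 4, 5 and 2 reads at E50, while the E40 libraries were above the E50 libraries in FPKM and left a 3.96-fold shallow rise. BNC1, the basonuclin gene of stratified epithelia, had 10.4, 1.92 and 4.7 FPKM across the late bell libraries, against 0.565, 0.873 and 0.807 FPKM in the early bell and 0.353, 0 and 0 FPKM in the cap stage, and its single read at E40 gave a pooled ratio of 34.8 (95% interval 5.83 to 1416). KLF4, a zinc finger factor gene of epithelia and of odontoblasts, had 9.0, 2.21 and 4.24 FPKM in E60 libraries 1 to 3, compared with 2.27, 2.79 and 3.16 FPKM at E50 and 0.723, 0.968 and 2.31 FPKM at E40, and E60 library 2 was within the range of E40. MESP2 had 7.25, 2.67 and 5.45 FPKM in the cap stage libraries, 4.1, 3.24 and 5.18 FPKM in those of the early bell and 9.53, 15.7 and 19.3 FPKM in those of the late bell and was one of the members in which the shallow E60 libraries exceeded E60 library 1. FOXO1, a target of insulin signaling, was close to the limit with rises of 1.09 and 1.02 on the log2 scale.

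Immune and blood protein genes were 14 members. Of these, 7 had more than 3 reads in each of E60 libraries 2 and 3 (77.6% of all members, 80.7% of candidates). CD86, a costimulatory receptor gene of antigen-presenting cells, had 0.395, 3.19 and 2.5 FPKM across the late bell libraries, against 0.184, 0.147 and 0.102 FPKM in the early bell and 0.261, 0.233 and 0.185 FPKM in the cap stage, so that most of its signal lay in the shallow E60 libraries, with a pooled ratio of 12.7 (95% interval 4.0 to 64.3). The receptor gene TREM2 and its signaling partner TYROBP are expressed together in macrophages and osteoclasts, and both were at the floor in the shallow set. TREM2 had 1 and 2 reads and TYROBP 2 and 3 reads in E60 libraries 2 and 3. In the deep set TREM2 was at the floor as well, with 3 reads in E60 library 1 and 0, 2 and 1 at E50. TYROBP had 1.06, 0.927 and 1.4 FPKM at E50 against 2.49 FPKM in E60 library 1. ELMO1, which encodes a regulator of cell engulfment and migration, had 15.6, 6.54 and 8.82 FPKM in E60 libraries 1 to 3, compared with 2.91, 2.76 and 2.24 FPKM at E50 and 1.8, 1.07 and 1.71 FPKM at E40. SLA-DRA and SLA-DQA1, class II genes of the pig major histocompatibility complex, overlapped between E40 and E60 in the shallow set. Their reads may be shared with near-identical family members.

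A list of leukocyte and macrophage markers had a median log2 difference of 0.02 within the sets, against -0.32 for all genes tested. Of 20 tested, 1 was a member (TYROBP) and none passed the limits of the fit given below. The summed FPKM of the list was between 66.0 and 76.8 at E40, 56.8 and 66.3 at E50, and 75.4, 50.9 and 60.9 in E60 libraries 1, 2 and 3. CD163 and CORO1A were listed at 0 in all 9 libraries. The endothelial list had 1 member of 16 tested, LYVE1, with 0, 0 and 1.56 FPKM in the cap stage libraries, 1.07, 1.83 and 1.41 FPKM in those of the early bell and 4.81, 0.897 and 1.41 FPKM in those of the late bell. E60 library 1 was higher than E50 by 3.35-fold, but in the shallow set the stages overlapped with at most 6 reads in a library.

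Genes first known from neurons or from regulated secretion were 13 members. CPE encodes the carboxypeptidase that trims prohormones in secretory granules, and had 169.8, 96.4 and 205 FPKM across the late bell libraries, against 55.9, 45.3 and 58.2 FPKM in the early bell and 18.9, 26.7 and 29 FPKM in the cap stage. Every late bell library was above every earlier one, by 3.2-fold and 6.05-fold within the sets. SNAP91, which encodes a clathrin assembly protein, had 20.2, 5.2 and 7.79 FPKM in E60 libraries 1 to 3, compared with 5.02, 4.88 and 4.47 FPKM at E50 and 1.39, 1.86 and 2.47 FPKM at E40, with E60 library 2 just above the highest E50 library. RTN1, a reticulon gene of the endoplasmic reticulum, had 0.677, 0.302 and 0.48 FPKM in the cap stage libraries, 1.41, 1.45 and 1.39 FPKM in those of the early bell and 8.43, 2.76 and 4.51 FPKM in those of the late bell, with a pooled ratio of 7.81 (95% interval 3.06 to 25.4) in the shallow set. The adhesion molecule genes CHL1 and CNTN1 were higher by 3.05-fold and 2.24-fold in the deep set and 4.3-fold and 2.19-fold in the shallow set. GAP43, a growth cone protein gene, had 10.7, 4.74 and 5.95 FPKM across the late bell libraries, against 5.13, 3.37 and 4.73 FPKM in the early bell and 2.09, 1.24 and 1.48 FPKM in the cap stage, and its pooled ratio in the shallow set was 3.43 (95% interval 1.51 to 8.76). It was the single member among 9 nerve and Schwann cell markers tested, whose list sum was between 22.8 and 29.4 FPKM at E40, 24.9 and 28.0 at E50 and 27.4, 18.0 and 20.9 in E60 libraries 1, 2 and 3. MBP was listed at 0 throughout.

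Several members with large rises stood in no group. CKMT1B encodes the mitochondrial creatine kinase, and had 132, 27 and 85.4 FPKM in E60 libraries 1 to 3, compared with 6.44, 6.31 and 7.53 FPKM at E50 and 0.641, 1.14 and 0.454 FPKM at E40. Its E40 libraries held 4 reads together, and the pooled ratio in the shallow set was 82.3 (95% interval 31.8 to 304). A near-identical copy, CKMT1A, could share these reads. ENTPD3, which encodes an enzyme that breaks down extracellular nucleotides, had 6.97, 5.33 and 6.0 FPKM in the cap stage libraries, 9.88, 10.4 and 9.95 FPKM in those of the early bell and 93.7, 17.6 and 51.5 FPKM in those of the late bell, with no overlap across all libraries. SCRN1, the gene of a regulator of exocytosis, had 13.9, 5.03 and 11.3 FPKM across the late bell libraries, against 0.593, 0.503 and 0.504 FPKM in the early bell and 1.23, 0.551 and 0.219 FPKM in the cap stage. FAM198B (GASK1B), which encodes a Golgi-associated protein, had 57.1, 16.2 and 25 FPKM in E60 libraries 1 to 3, compared with 10.7, 12.8 and 11.7 FPKM at E50 and 5.76, 2.94 and 5.25 FPKM at E40, and all its late bell libraries were above all earlier ones. CMTM8, of the MARVEL-domain family, had 3.01, 0 and 1.07 FPKM in the cap stage libraries, 2.99, 3.3 and 3.05 FPKM in those of the early bell and 12, 7.17 and 9.64 FPKM in those of the late bell, with 7 and 12 reads in E60 libraries 2 and 3 and a pooled ratio of 6.68 (95% interval 1.97 to 35.3).

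The most abundant member in E60 library 1 was PTF-BETA, with 989, 243 and 608 FPKM across the late bell libraries, against 421, 445 and 571 FPKM in the early bell and 120.0, 159 and 201 FPKM in the cap stage. Its rises of 2.06-fold and 2.66-fold were small but free of overlap within the sets. NUDT4, which encodes an enzyme that removes phosphates from inositol pyrophosphates, had 395, 76.7 and 144 FPKM in E60 libraries 1 to 3, compared with 92.5, 119.7 and 122 FPKM at E50 and 32.4, 36.4 and 40.8 FPKM at E40. ANXA8, a calcium-dependent phospholipid-binding annexin gene, had 30.6, 34.1 and 37.4 FPKM in the cap stage libraries, 46.7, 44.7 and 53.4 FPKM in those of the early bell and 186, 50.3 and 111 FPKM in those of the late bell. These abundant members carry between 157 and 1549 reads in E60 libraries 2 and 3, so that counting error adds little. GADD45B, a stress-induced gene, had 22.5, 14.1 and 27.7 FPKM across the late bell libraries, against 7.31, 5.35 and 9.24 FPKM in the early bell and 8.79, 5.7 and 7.36 FPKM in the cap stage and was above all earlier values in every E60 library. 

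The members include 6 rows with transfer RNA symbols, which begin in lower case and so were not among the symbols left out. tRNA-Leu had 219.7, 1815 and 553 FPKM in E60 libraries 1 to 3, compared with 175, 216 and 5.56 FPKM at E50 and 284, 292 and 211 FPKM at E40. E50 library 3 was thus far below the other E50 libraries, as it was for tRNA-His, with 220.4, 156 and 2.02 FPKM, and for tRNA-Gln, with 325, 112 and 10.5 FPKM. E60 library 2 was the highest library for all 6, with 3560.1 FPKM for tRNA-Gln against 148 FPKM in E60 library 3, and E60 library 3 had no read of tRNA-Val or tRNA-Phe. Of the 6, 2 did not overlap in either set (82.8% of all members, 3.63% of candidates), and without these rows 168 members remain.

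Lists of genes were compared with the members in 2 ways, by the number of members and by a fit across all genes. Members were 0.887% of the 19618 genes tested, and 1.57% of the 11104 candidates that the rule could choose. Among genes of ameloblasts outside the matrix, 3 of 29 were members (SATB1 and ACPT among them), among odontoblast and bone formation genes 4 of 30 (PLOD2, PHOSPHO1, SOST and BMP2), and among genes of ion, acid and calcium transport 4 of 51 (CASR, ATP2B1, AQP4 and CLCA2). Hypoxia genes had 2 of 18 (LOX and P4HA2), immediate early and heat shock genes 2 of 20 (GADD45B and KLF4) and glucocorticoid-responsive genes 1 of 16 (FOXO1). No gene was a member of 67 tested for folding and export in the endoplasmic reticulum, 17 of the circadian clock, 18 induced by interferon, 35 of the cell cycle, 16 of lipid and adipocyte metabolism, 23 of the oral surface epithelium, 27 of skeletal muscle, 13 of red blood cells, 5 of osteoclasts and 11 of cartilage.

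The fit used limma on log2(FPKM + 0.1) with Benjamini-Hochberg adjustment over all 19618 genes, within both sets at once, and called genes by an adjusted p under 0.05 together with a log2 difference of 1 or more. It called 104 genes higher (0.53%) and 123 lower (0.627%) at late bell. With 1 late bell term for both sets, its residual spread also holds the difference between the 2 rises. AQP4, with rises of 1.25 and 5.42 and no overlap in either set, had a standard error of 0.947. Its adjusted p in this limma fit was 0.081, so that it was not called. Among the members, 57 of 174 were called higher, and since the rule used the same contrast nothing is read from this number. By groups, 12 of 25 matrix genes, 6 of 19 transport genes, 6 of 12 genes of glycan and lipid modification, 6 of 13 neuronal and vesicle genes, 4 of 22 signals and receptors, 3 of 11 transcription factor genes, 3 of 7 mineral and tooth disease genes, 2 of 14 immune and blood genes and none of the 6 transfer RNA rows were called. The fits of single stages over all libraries called 38 members of 130 genes higher from E40 to E60 (0.663%) and 1 member of 10 from E50 to E60 (0.051%), a comparison in which the sets are mixed. Their residual spread also holds the difference between deep and shallow libraries at E60. The fits differed in how far 1 library carried them, since the fit within sets called 22 members without E60 library 3 and 51 without E60 library 2. Without E60 library 1 the deep set holds no late bell library, and the comparison of E60 libraries 2 and 3 with E40 that is left called 60 of 164 members tested.

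The lists were also read by the calls of this fit over all genes. In it, 2 of 29 ameloblast genes, 1 of 30 odontoblast and bone formation genes, 3 of 51 transport genes, 1 of 20 immediate early genes, 1 of 18 hypoxia genes and 1 of 9 nerve genes were called higher, and all were members except the ion channel gene TRPM7. The other lists had no gene called higher. Cell cycle genes had a median log2 difference of -0.77 within the sets, with 1 of 35 called lower. Skeletal muscle genes had a median of -3.00 in the shallow set, and their summed FPKM was between 468 and 656 at E40 and 69.6 and 98.3 in E60 libraries 2 and 3, with 2 of 27 called lower. In the deep set their median was -0.34, and the sum was 163 in E60 library 1 and between 80.7 and 102 at E50. Oral surface epithelium had a median of -2.07 in the shallow and 0.14 in the deep set, with 1 of 23 called lower. Cartilage had medians of -0.88 and 0.04, with 1 of 11 called lower, but its summed FPKM was higher at late bell in both sets. The sum was 407 in E60 library 1 and between 218 and 262 at E50. It was 73.4 and 112 in E60 libraries 2 and 3 and between 56.0 and 60.5 at E40. Endoplasmic reticulum genes had a median of 0.22 within the sets, above that of all genes, with none of 67 called. The part of these shifts in the rises of the members was not tested.

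By position, 158 of 174 members were found in the RefSeq gene order of Sscrofa11.1, which was used for neighbours only. Adjacent in this order were ANKS6 and GALNT12, CMTM8 and CMTM7, CASR and CD86, and TLL1 and CPE. TLL1 encodes a procollagen-processing protease and had 0.305, 0.545 and 1.3 FPKM in the cap stage libraries, 0.998, 1.68 and 1.52 FPKM in those of the early bell and 6.66, 1.45 and 4.07 FPKM in those of the late bell, with rises of 4.76-fold in the deep and 3.85-fold in the shallow set, whereas those of CPE were 3.2-fold and 6.05-fold. CASR and CD86 differed in level, with 10.6 FPKM and 0.395 FPKM in E60 library 1. TESC and HRK, GALNT5 and CYTIP, and OTOR and BFSP1 stood 2 genes apart, and SLA-DRA and SLA-DQA1 3 apart.

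At the limits of the rule, the members just inside the deep rise were MXRA5 at 1.002, CMTM7 at 1.004 and NAV3 at 1.02, and just outside were KCNJ6 at 0.99, PDE8A at 0.97 and NID2 at 0.96. Just inside the shallow rise were CITED4, ARSB and P4HA2, at 1.01 each, and just outside TRPM7, RNF152 and CLEC3B, between 0.998 and 0.999. CITED4 lay inside through E60 library 3 at 10.9 FPKM, while E60 library 2 at 1.61 FPKM was within the range of E40.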

How the data were processed

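RNA of Dm3 germs was measured in 9 libraries, 3 for each of E40, E50 and E60, assigned to stages by their labels. After rRNA depletion and directional library preparation, the authors aligned reads with TopHat to the build Sscrofa10.2 named in the submitters' processing notes, and deposited 1 table of FPKM values, a row per gene. No further scaling between libraries is stated, nor whether counting used strand. Whole reads were recovered within 0.05 reads in every library for 27090 of 28963 rows above 0. The members and gene lists were chosen with earlier results of these data known, and the groups of known function after the values were seen.

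Genes reaching an FPKM of 1 in 2 or more libraries were fitted with limma 3.58.1 in R 4.3.3 on log2(FPKM + 0.1), with a mean-variance trend and Benjamini-Hochberg adjustment over all genes, and the steps were tested on simulated data. In the fit within sets, E60 was compared with the earlier stage of its own set by a term for the set. Named were the 25 members with the largest smaller rise among those with at least 5 FPKM in each E60 library, up to 4 per gene list, the 3 on each side of each limit, the 10 with the highest median FPKM at E60, and up to 6 per group of known function. Cell type markers and other lists were compared by counts. Other steps ran in Python 3.11.15 (pandas 2.3.3, scipy 1.17.1, numpy 2.4.6; figures, matplotlib 3.10.9). The RefSeq table of Sscrofa11.1 was used for gene order and symbols only, and sequences were not used here. Alternatives were other pseudocounts, filters, limits and scaling, a replicate block, limma-voom on recovered reads and leaving out each library. Values of some genes are not reported here.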

Additional observations from a re-analysis of the deposited data

How the results depend on the processing

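The number of members moved from 174 to 100 with a pseudocount of 1, to 110 with an FPKM of at least 5 in 2 libraries, to 268 with median-ratio scaling, to 41 with rises of at least 2, and to 64 when every E60 library had to lie at least 1 above the highest earlier library of its set. All of those 100, 110, 41 and 64 genes were among the 174, as were 173 of the 268. Recovered reads with a floor of 3 gave 121 genes, 117 of them members. Leaving out a library gave between 135 genes, without E60 library 3, and 216, without E60 library 2, and the count without E60 library 1 cannot be had. Chosen after seeing the data, leaving out transfer RNA symbols gave 168 genes and more than 3 reads in each of E60 libraries 2 and 3 gave 135. Median-ratio scaling moved the median difference of all genes within the sets from -0.32 to -0.02.

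In the fit within sets, the 104 genes higher at E60 became 184 with a pseudocount of 1, 312 with median-ratio scaling and 361 with limma-voom on recovered reads, and the 123 lower became 193 with a pseudocount of 1, 60 with a filter of values above 0 in 2 libraries and 722 with limma-voom. From E50 to E60 the 10 higher became 18, 69 and 51 with a pseudocount of 1, median-ratio scaling and limma-voom, and from E40 to E60 the 130 higher became 402 with median-ratio scaling and 32 with limma-voom. Without 1 library, the counts were between 37 (without E60 library 3) and 268 (without E60 library 1) higher within sets, between 26 (without E40 library 2) and 913 (without E60 library 1) lower within sets, between 3 and 3907 (without E60 library 1) higher from E50 to E60, and between 45 (without E50 library 2) and 454 (without E60 library 2) higher from E40 to E60. Without E60 library 1 the deep set has no late bell library, so that the fit within sets is the comparison of E40 with E60 libraries 2 and 3 alone, and that of E50 with E60 sets deep against shallow libraries, in which stage and set cannot be told apart. Without any other library the highest counts were 113 higher and 69 lower within sets and 18 higher from E50 to E60. The cause of the other changes was not tested.

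With the replicate number of the labels as a replicate block, the genes higher at E60 were 95 within sets, 3 from E50 to E60 and 30 from E40 to E60. The deviations of libraries with the same number from their stage means had correlations between -0.52 and 0.11 across genes. At E60 this mean mixes deep and shallow libraries, and libraries with unlike numbers were not compared. Whether the number pairs libraries therefore cannot be told from these values.

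Of the 46 members named as leading, from a gene list or by level, the smaller of both rises turned negative for tRNA-Gln without E60 library 2 (-0.50, with up to 1.95 without other libraries) and for tRNA-Phe without E40 library 1 (-1.25) or without E60 library 2 (-5.55, with up to 4.58 without E60 library 3). With the floor of 3 reads it was -0.51 for SOST, BMP2 and TYROBP and -0.26 for LYVE1, since both groups are then at or near the floor. Over all 174 members it was below 0 for none with a pseudocount of 1 or 0.01 or median-ratio scaling, for 26 with the floor (TREM2, GALR1, CSN3 and MLANA among them), for 1 without E40 library 1, for 3 without E60 library 2 (tRNA-Val beside those above), for 2 without E60 library 3 (CITED4 and SLA-DQA1) and for none without any other E40 library or any E50 library. The shares of promoters with sequence motifs were not run.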

Other observations

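For 10 members the early bell mean lay at least 1 below the cap stage mean on the log2 scale, and the late bell values of some lay mainly in the shallow libraries. OTUD7A, which encodes a deubiquitinating enzyme, had 1.51, 14.5 and 14.6 FPKM across the late bell libraries, against 0.495, 0.174 and 0.177 FPKM in the early bell and 1.93, 2.42 and 2.74 FPKM in the cap stage, so that the rise in the deep set ended below the cap stage values. MLANA, a gene of pigment cells, had 0.347, 10.1 and 4.77 FPKM in E60 libraries 1 to 3, compared with 0.191, 0 and 0 FPKM at E50 and 0, 5.33 and 4.23 FPKM at E40, from at most 5 reads in a library, and KCNC2, a potassium channel gene, had 2.59, 0.772 and 2.45 FPKM in the cap stage libraries, 0.498, 0.195 and 0.903 FPKM in those of the early bell and 1.26, 3.53 and 5.07 FPKM in those of the late bell. CSN3, the kappa-casein gene, had no read at E50 and 2, 3 and 4 reads in E60 libraries 1, 2 and 3, at or near the floor. Stage and set cannot be told apart in these falls from E40 to E50.

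A few receptor genes were looked at after their values had been seen. PROKR2, the gene of a prokineticin receptor, had 8.76, 2.32 and 1.82 FPKM across the late bell libraries, against 1.12, 1.06 and 0.891 FPKM in the early bell and 0, 0 and 0.907 FPKM in the cap stage, with a pooled ratio of 5.63 (95% interval 1.61 to 30.1) in the shallow set, and every late bell library was above every earlier one. LPAR3, a lysophosphatidic acid receptor gene, had 19.97, 2.16 and 7.16 FPKM in E60 libraries 1 to 3, compared with 7.94, 8.35 and 7.92 FPKM at E50 and 1.06, 0.946 and 0.251 FPKM at E40, with a pooled ratio of 7.08 (95% interval 3.18 to 18.6). In unscaled FPKM its E50 libraries were above both shallow E60 libraries. The prostaglandin receptor gene PTGFR had 10.1 FPKM in E60 library 1 and 2.63, 3.73 and 2.56 FPKM at E50, while the galanin receptor gene GALR1 had 38, 2 and 3 reads in the E60 libraries and none at E40.

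Of genes that the rule left out by name, 26 had both rises, and so had 142 rows with LOC symbols. They included LAMA3 and LAMB3, which encode laminin chains of epithelial basement membranes. LAMA3 had 137, 36.4 and 66.7 FPKM in the late bell libraries, compared with 8.12, 9.47 and 8.28 FPKM at E50 and 6.83, 7.9 and 11 FPKM at E40.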
